A study of Mus musculus with 6 samples.

Results

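Small nucleolar RNAs (snoRNAs) and small Cajal body RNAs (scaRNAs) are short, stable non-coding RNAs, and 23 genes of these families were followed here in naïve CD4 T cells with and without the mRNA cap methyltransferase RNMT. The members were all genes of the authors' expression table whose mouse symbol starts with Snora, Snord or Scarna: 23 of the 11221 genes of that table, out of 46983 genes counted. They comprised 7 C/D box snoRNAs, 12 H/ACA box snoRNAs and 4 scaRNAs. A further 127 genes with such symbols were counted but are not in that table, and 69 of them had a count of 0 in all 6 libraries.

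The study compared male mice whose Rnmt alleles carried loxP sites around exon 3 (Rnmt fl/fl). The control animals had no Cd4-Cre transgene, and the Rnmt cKO animals carried it, so that Cre expressed from Cd4 regulatory sequences acted from the thymus onwards and both the presence of Cre and the loss of Rnmt set the groups apart and cannot be told apart. Naïve CD4 T cells were sorted from lymph nodes by a naïve cell gate that included TCRb+, CD4+, CD44- and DAPI-, and rRNA-depleted total RNA was sequenced in 3 libraries per group, with no treatment of the cells. The age of the animals and whether each library came from a separate animal were not given in the sources used here, so p-values measure the spread between these libraries.

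C/D box snoRNAs guide ribose methylation of ribosomal RNA and H/ACA box snoRNAs guide its pseudouridylation, each inside a protein particle built on its conserved boxes, and a few members of both classes act in the cleavage of the rRNA precursor instead. The scaRNAs do the same work on spliceosomal snRNAs in Cajal bodies. In mammals most of these RNAs are cut out of introns of host genes, many of which encode ribosomal or translation proteins, and are then trimmed by exonucleases, whereas a few are transcribed from promoters of their own by RNA polymerase II and receive a cap.

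The sequences of 8 members on which the results turn are shown as the GENCODE vM21 transcripts (mouse build GRCm38), written 5′ to 3′ as DNA. Snord17 (chr2:144265979-144266216, minus strand), Snord15a (chr7:99482785-99482932, minus strand) and Snord104 (chr11:106500993-106501062, plus strand) are the C/D box members that were lower in Rnmt cKO, and Snord118 (chr11:69073427-69073561, plus strand), known as U8, is a C/D box member that was not. Snora73b (chr4:132352322-132352526, minus strand), Snora57 (chr19:8888538-8888685, minus strand) and Snora68 (chr8:70895759-70895889, minus strand) are among the H/ACA box members that were lower, and Scarna6 (chr1:87784556-87784820, plus strand) is the scaRNA with the largest fall. Capitals mark the C box (TGATGA) within the first 30 bases and the D box (CTGA) within the last 25 bases of C/D box members and of Scarna6, and the ACA nearest the 3′ end of H/ACA box members.
Snord17: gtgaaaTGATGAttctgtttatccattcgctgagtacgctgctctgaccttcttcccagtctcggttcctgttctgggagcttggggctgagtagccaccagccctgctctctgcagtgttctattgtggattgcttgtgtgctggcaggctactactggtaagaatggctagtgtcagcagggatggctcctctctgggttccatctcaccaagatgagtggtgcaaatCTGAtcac
Snord15a: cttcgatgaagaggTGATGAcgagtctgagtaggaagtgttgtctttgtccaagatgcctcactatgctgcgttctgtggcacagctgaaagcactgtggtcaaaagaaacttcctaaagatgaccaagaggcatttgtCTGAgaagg
Snord104: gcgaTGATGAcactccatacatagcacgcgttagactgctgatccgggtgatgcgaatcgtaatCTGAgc
Snord118: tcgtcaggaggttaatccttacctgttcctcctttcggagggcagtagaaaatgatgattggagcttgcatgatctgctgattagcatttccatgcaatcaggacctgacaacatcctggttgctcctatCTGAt
Snora73b: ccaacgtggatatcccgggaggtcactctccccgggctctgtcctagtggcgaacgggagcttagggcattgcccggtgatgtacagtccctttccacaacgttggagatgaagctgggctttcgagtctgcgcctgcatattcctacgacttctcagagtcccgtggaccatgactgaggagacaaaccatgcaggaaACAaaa
Snora57: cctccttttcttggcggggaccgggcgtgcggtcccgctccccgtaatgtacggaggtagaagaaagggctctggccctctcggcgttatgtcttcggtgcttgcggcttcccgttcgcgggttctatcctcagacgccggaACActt
Snora68: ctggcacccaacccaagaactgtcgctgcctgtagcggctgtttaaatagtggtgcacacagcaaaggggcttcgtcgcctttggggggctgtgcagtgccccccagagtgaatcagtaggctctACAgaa
Scarna6: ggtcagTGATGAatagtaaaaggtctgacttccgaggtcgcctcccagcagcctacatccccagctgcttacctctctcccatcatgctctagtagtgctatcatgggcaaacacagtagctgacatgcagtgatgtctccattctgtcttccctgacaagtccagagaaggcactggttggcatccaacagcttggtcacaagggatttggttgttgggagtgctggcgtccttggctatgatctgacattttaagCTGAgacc

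The C, D and ACA boxes were searched near the ends of the members, and the H box was not searched. Read on the sense strand, TGATGA lay in the first 30 bases of 5 of 7 C/D box members and CTGA in the last 25 bases of 6 of 7, against 0.787% and 11.2% of 139962 other transcripts of at least 60 bases. These other transcripts leave out all annotated snoRNAs and scaRNAs, so they do not set the members against other snoRNAs. An ACA within the last 10 bases was present in 12 of 12 H/ACA box members, 10 of them exactly 3 bases before the end, against 14.0% and 2.26% of the other transcripts. Snord118 and Snord43 held CTGA without that exact TGATGA, and Snord53 held TGATGA without CTGA in its last 25 bases. Among the scaRNAs, Scarna6 and Scarna17 held both C/D boxes, Scarna13 held the ACA, and Scarna2 had neither pair. A window without a motif says only that those letters are not in it.

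By genome position, 17 members lay inside an intron of an annotated gene on the same strand and 6 had no such host gene in GENCODE vM21: Snord104, Snord118, Snora17, Snora57, Scarna2 and Scarna17. In the RefSeq annotation of the same build, Snord104 lay inside Gm36220, Snora57 inside 5730408K05Rik and Snora17 inside Snhg7, all on the same strand, and Scarna17 inside Gm41774, whose strand was not given. Only Snord118 and Scarna2 were covered by no gene in either annotation. For Snord111, Snora28, Snora33 and Snora68, an exon of the host gene overlaps the member in the comprehensive annotation of vM21, though for none in its basic annotation. Of the 17 intronic members, 6 lay in ribosomal protein genes, 8 in other protein-coding genes and 3 in non-coding host genes. On the same strand Snora73b also lay inside Rcc1 and Snora30 inside Gm42715, and Snhg3 and Srcap were used as their hosts. The place of Snora73b among members in non-coding hosts rests on that choice. The class without a host in vM21 is used as given by that annotation, with Snord118 and Scarna2 named apart, a distinction made after the values were seen.

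As a check of the labels, Rnmt was at 51.5, 58.7 and 57.9 CPM (counts scaled to a common library total) in the control libraries and 42.0, 37.5 and 26.6 in the Rnmt cKO libraries, with no overlap (log2 fold change -0.67 ± 0.20 (SE), adjusted p = 3.50e-04, edgeR exact test with Benjamini-Hochberg adjustment over all genes tested). The libraries held 8873413 to 11277764 sense-strand gene counts. Libraries differed in their make-up within groups: the share of uniquely aligned reads in no gene was 36.1%, 39.7% and 46.1% in controls and 47.9%, 46.5% and 31.8% in Rnmt cKO, and the share of reads aligning to several places was 14.3%, 11.5% and 9.90% against 7.38%, 7.32% and 12.0%. The T cell and naïve markers Cd4, Cd3e, Lck, Trac, Lef1 and Tcf7 had group means from 145 CPM (Cd3e, Rnmt cKO) to 1017 CPM (Tcf7, Rnmt cKO). Of the markers of other cells, the B cell list (3 of 5 members higher) summed to between 31.2 and 37.7 CPM in controls and between 40.2 and 68.8 CPM in Rnmt cKO. The myeloid list (1 of 3 tested higher) summed to between 5.19 and 7.07 CPM against between 9.93 and 21.9, and the erythroid list (2 of 2 tested lower) to between 4.75 and 7.52 CPM against between 1.06 and 1.35. The CD8 genes Cd8a and Cd8b1 were both lower and summed to between 21.7 and 23.3 CPM against between 13.5 and 17.3. Cell division genes, 8 of 9 of them higher, summed to between 183 and 209 CPM in controls and between 440.0 and 482 CPM in Rnmt cKO, and the part of these differences in the results that follow was not tested.

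Of the 23 members, 12 were lower in Rnmt cKO past an adjusted p of 0.05 (edgeR exact test, Benjamini-Hochberg adjustment over 12336 genes), and these included the most abundant C/D box and H/ACA box snoRNAs. Across all genes tested, 6.84% were lower and 8.0% higher. None of the members was higher, neither at the adjusted threshold nor at an unadjusted p under 0.05, and quasi-likelihood and DESeq2 fits called 0 members higher as well. The other 11 members did not pass the test. The lowest count in the authors' table was 9 to 12 in each library. A gene below that lowest count in any library, of either group, could not be a member. The absence of higher members holds only for genes that were not below it. Snord13, with 8 counts in control 2, lies outside that table and was higher, as given below. The median log2 fold change of the members (Rnmt cKO over control) was -0.85, against 0.01 over all genes tested. A value below 0 was held by 22 of 23 members, against 5897 of the 12336 genes tested. Of these members Snord53 and Snora28, both not called, turned positive when libraries were scaled by total counts alone. That scaling moved the median over all genes to 0.14 and the calls over all genes to 535 lower and 1938 higher, against 844 and 987, and left 11 members lower. Without control 1, 10 members were lower, and without Rnmt cKO 3, 13 were. The 3 Rnmt cKO libraries lay below the 3 control libraries, with no overlap, for 14 members, against 14.9% of all genes tested, and above them for 0 members, against 16.6% of all genes. In bulk RNA, fewer cells of one type and less RNA per cell cannot be told apart.

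Together the members amounted to 2714, 1539.9 and 1704 CPM in controls 1, 2 and 3 and 701, 652 and 1250.4 CPM in Rnmt cKO 1, 2 and 3, a mean of 1986 ± 636 against 868 ± 332 (SD, n = 3). The groups did not overlap, but control 1 stood above the other controls and Rnmt cKO 3 above the other Rnmt cKO libraries. This order ran through the members singly: control 1 was the highest of all 6 libraries for 18 of 23 members and for 12 of the 12 that were lower, and Rnmt cKO 3 was the highest Rnmt cKO library for 11 of those 12. Of the control signal, 94.9% came from the 6 members longer than 180 bases, and 37.6% from Snord17 alone.

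**Figure D1:**
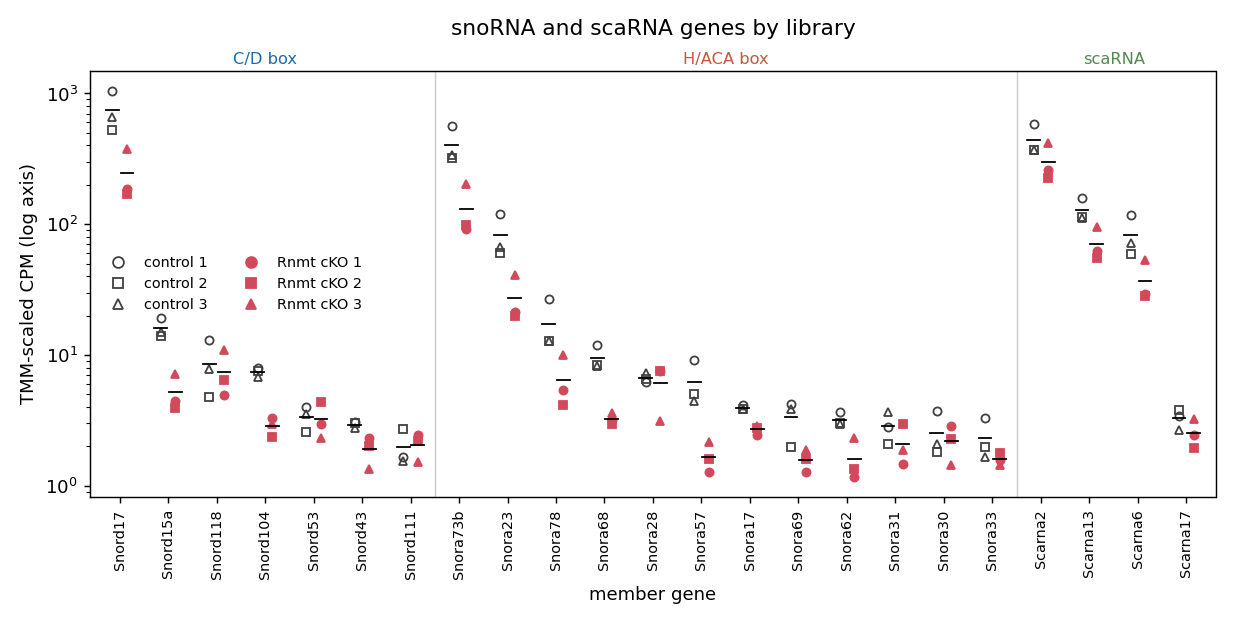
TMM-scaled CPM (log axis) of each of the 23 members in each library, grouped by class and ordered by mean level in controls. Open grey symbols are the 3 control libraries, filled red symbols the 3 Rnmt cKO libraries, with 1 symbol shape per replicate number, and short bars are group means. Snord17, Snora73b and Snora23 have all Rnmt cKO libraries below all controls, whereas the groups overlap for Snord118, Snord53, Snord111, Snora28 and Scarna2.

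Among the C/D box members, 3 of 7 were lower, 0 were higher and the median log2 fold change was -0.64. Snord17, a guide of rRNA ribose methylation and the C/D box member with the highest level per length, 3138 ± 1146 CPM per kb of gene in controls (SD, n = 3), was at 1053, 529 and 658 CPM in controls and 187, 171 and 376 CPM in Rnmt cKO. All Rnmt cKO libraries were below the lowest control, with replicate 3 the nearest to it. The fall was 3.05-fold (log2 fold change -1.61 ± 0.46 (SE), adjusted p = 5.98e-06, edgeR exact test with Benjamini-Hochberg adjustment).

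Snord15a, also a guide of rRNA methylation, was at 19.0, 13.9 and 15.0 CPM in controls and 4.44, 3.97 and 7.17 CPM in Rnmt cKO. Its highest Rnmt cKO library lay well below its lowest control (log2 fold change -1.62 ± 0.29 (SE), adjusted p = 2.50e-09, edgeR exact test with Benjamini-Hochberg adjustment). Snord104, with no host gene in vM21, was at 7.99, 7.49 and 6.74 CPM in controls and 3.28, 2.36 and 2.96 CPM in Rnmt cKO, on counts between 28 and 75 per library. Its libraries were tight within each group and well apart between them (log2 fold change -1.38 ± 0.15 (SE), adjusted p = 3.77e-07, edgeR exact test).

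The other 4 C/D box members did not pass the test. Snord118 (U8), which acts in the processing of large-subunit rRNA and whose coordinates place it 134 bases from Tmem107 on the same strand, was at 13.0, 4.79 and 7.84 CPM in controls and 4.97, 6.50 and 10.9 CPM in Rnmt cKO. The groups overlapped over their whole range, and the value, -0.19 ± 0.52 (SE), was not distinguishable from 0 at counts of 47 to 122 per library (edgeR exact test, adjusted p = 0.831). Snord43, a guide of small-subunit rRNA methylation, was at 3.06, 2.99 and 2.76 CPM in controls and 2.32, 2.02 and 1.34 CPM in Rnmt cKO, without overlap but on 15 to 30 counts per library (log2 fold change -0.64, edgeR exact test, adjusted p = 0.180). Snord111 and Snord53 had log2 fold changes of 0.04 and -0.05, the values nearest to 0 in the class, with overlapping groups.

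Of the H/ACA box members, 7 of 12 were lower and 0 higher, with a median log2 fold change of -1.02. Snora73b, a U17 RNA that takes part in the cleavage of the small-subunit rRNA precursor rather than in modification, had the highest level per length of its class, 1979 ± 649 CPM per kb in controls (SD, n = 3). It was at 559, 319.8 and 338 CPM in controls and 92.1, 98.3 and 204 CPM in Rnmt cKO. The groups did not overlap, and the fall was 3.08-fold (log2 fold change -1.62 ± 0.45 (SE), adjusted p = 2.18e-06, edgeR exact test with Benjamini-Hochberg adjustment). Its value rests on strand, since an exon of the antisense gene Gm17300 covers it and counting on either strand left it with 0 counts.

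Snora23, a pseudouridylation guide second in level per length in the class, was at 119, 60.4 and 66.6 CPM in controls and 21.5, 19.8 and 41.1 CPM in Rnmt cKO. Again replicate 3 of the Rnmt cKO was the closest to the controls without reaching them (log2 fold change -1.58 ± 0.45 (SE), adjusted p = 5.89e-06, edgeR exact test with Benjamini-Hochberg adjustment). Snora57 had the largest fall of all 23 members, 3.64-fold, from 9.17, 4.99 and 4.42 CPM to 1.27, 1.60 and 2.15 CPM, though on 12 to 78 counts per library (log2 fold change -1.87 ± 0.37 (SE), adjusted p = 7.57e-06, edgeR exact test). Every Rnmt cKO library was below the lowest control. Snora68 was at 12.0, 8.38 and 8.17 CPM in controls and 3.17, 2.95 and 3.59 CPM in Rnmt cKO, with little spread in Rnmt cKO and no overlap (log2 fold change -1.55 ± 0.19 (SE), adjusted p = 2.55e-08, edgeR exact test).

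Snora78 was at 26.7, 12.8 and 12.7 CPM in controls and 5.39, 4.13 and 9.95 CPM in Rnmt cKO, its control 1 standing far above the other controls (log2 fold change -1.42 ± 0.51 (SE), adjusted p = 0.00150, edgeR exact test with Benjamini-Hochberg adjustment). The other H/ACA box members that were lower were Snora69 (log2 fold change -1.06, edgeR exact test, adjusted p = 0.0296) and Snora62 (-0.97, adjusted p = 0.0273). Snora69 was the nearest to an overlap: its lowest control stood at 2.00 CPM and its highest Rnmt cKO library at 1.88 CPM. Snora62 and Snora69 lie close to the threshold, and passed it in 5 and 8 of 17 alternative fits. The 5 that did not pass ranged from -0.55 (Snora17) to -0.14 (Snora28), with Snora33 at -0.52, Snora31 at -0.42 and Snora30 at -0.22. Snora28, the smallest change of the class, was at 6.23, 6.59 and 7.29 CPM in controls and 7.61, 7.59 and 3.14 CPM in Rnmt cKO. Rnmt cKO 3 was its lowest library and Rnmt cKO 1 and 2 were its highest, the opposite of the order seen in the abundant members. Snora17 was at 4.11, 3.89 and 3.87 CPM in controls and 2.43, 2.78 and 2.87 CPM in Rnmt cKO, separate but not past the threshold (edgeR exact test, adjusted p = 0.153).

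Of the scaRNAs, 2 of 4 were lower, 0 were higher and the median log2 fold change was -0.70. Scarna2, a guide of U2 snRNA methylation and the scaRNA with the highest level per length, 1061 ± 292 CPM per kb in controls (SD, n = 3), was at 579, 372 and 367 CPM in controls and 258, 227 and 420.0 CPM in Rnmt cKO. The value in Rnmt cKO 3 lay above those of controls 2 and 3, so the groups overlapped, and the difference did not pass the test (log2 fold change -0.54 ± 0.35 (SE), adjusted p = 0.104, edgeR exact test with Benjamini-Hochberg adjustment). With 1 library left out, its log2 fold change ran from -0.29 without control 1 (edgeR exact test, adjusted p = 0.503) to -0.88 without Rnmt cKO 3 (adjusted p = 2.22e-06), the only one of these fits that passed the threshold.

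Scarna13, known as U93 and a pseudouridylation guide for snRNAs, was at 157, 114 and 112 CPM in controls and 62.2, 55.3 and 95.0 CPM in Rnmt cKO. The groups were separate (log2 fold change -0.85 ± 0.29 (SE), adjusted p = 3.31e-04, edgeR exact test with Benjamini-Hochberg adjustment). Scarna6, known as U88 and a guide for U5 snRNA, was at 118, 58.7 and 71.2 CPM in controls and 29.3, 28.3 and 53.4 CPM in Rnmt cKO, likewise separate (log2 fold change -1.16 ± 0.42 (SE), adjusted p = 6.37e-04, edgeR exact test). Scarna17 was at 3.41, 3.79 and 2.65 CPM in controls and 2.43, 1.94 and 3.23 CPM in Rnmt cKO, overlapping on 23 to 38 counts per library (log2 fold change -0.38, edgeR exact test, adjusted p = 0.495).

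The summed levels of the snoRNA classes separated the groups, and that of the scaRNAs did not. The C/D box sum was 1101, 564 and 696 CPM in controls against 207, 192 and 403 CPM in Rnmt cKO, and the H/ACA box sum 754, 428 and 456 CPM against 142, 147 and 276 CPM. In both, every Rnmt cKO library was below every control, but a single gene carried most of each sum. In controls Snord17 gave a mean of 747 of 787 CPM of the C/D box sum. Snora73b gave 406 of 546 CPM of the H/ACA box sum. The scaRNA sum, carried by Scarna2, was 858, 548 and 553 CPM against 352, 313 and 572 CPM and overlapped, because Rnmt cKO 3 exceeded controls 2 and 3. Differences between the classes were not tested, since the members of a class are not replicates.

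Set by genome position, 10 of 17 intronic members were lower (median log2 fold change -0.97), as were 2 of the 6 without a host gene in vM21, Snord104 and Snora57 (median -0.54). These are among the members that RefSeq places inside a longer gene. Snord118 and Scarna2, inside no gene in either annotation, were not called, with log2 fold changes of -0.19 and -0.54, and their groups overlapped. The summed level of all 6 was 617, 397 and 392 CPM in controls and 272, 242 and 442 CPM in Rnmt cKO, again overlapping through Rnmt cKO 3. Most of it was Scarna2, with a mean of 439 of 469 CPM in controls. Taken singly, the groups overlapped for Scarna2, Snord118 and Scarna17 and did not overlap for Snord104, Snora57 and Snora17. The intronic sum was 2097, 1143 and 1312 CPM in controls and 429, 409.8 and 808 CPM in Rnmt cKO and did not overlap. Snord17 (747 CPM) and Snora73b (406 CPM) made up most of its control mean of 1517 CPM.

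The host genes had smaller log2 fold changes than the RNAs in their introns for several of the most abundant intronic members. Snord17 lies in Snx5, which encodes a sorting nexin and had a log2 fold change of -0.09 (edgeR exact test, adjusted p = 0.591). The log2 ratio of Snord17 to Snx5 was 2.55, 1.58 and 1.92 in controls and 0.17, 0.04 and 1.16 in Rnmt cKO, a change of -1.56 ± 0.45 (SE). Each Rnmt cKO library had a lower ratio than each control.

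The same separation of the ratio was seen for 6 of 15 members with a tested host gene. These included Snord17, Snora23 in Ipo7 (-1.31 ± 0.48), Snora73b in Snhg3 (-1.08 ± 0.41), Snord15a in Rps3 (-0.86 ± 0.09) and Snora28 in Eif5 (-0.56 ± 0.44), the last with a member that was not called, that a host exon overlaps in the comprehensive annotation, and a host gene that was higher (log2 fold change 0.33, edgeR exact test, adjusted p = 0.00407). With 3 against 3 libraries, the smallest p that an exact permutation test allows is 0.1, two-sided, which was the p of each of these 6, and over the 15 ratios the Benjamini-Hochberg value was 0.25, so that no ratio passed a threshold of 0.05. Scarna6 in Atg16l1 had a ratio change of -1.20 ± 0.52 while the groups overlapped, Rnmt cKO 3 lying above control 2.

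Members in ribosomal protein genes sat in hosts that were themselves lower. All 6 of these host genes were called lower, among them Rps12 (log2 fold change -1.13), Rpl39 (-0.95), Rpsa (-0.88), Rps3 (-0.76) and Rpl3 (-0.60), and 4 of the 6 members in them were lower (median -1.02). The log2 ratio of member to host changed by -0.10 ± 0.12 (SE) for Snora62 in Rpsa, -0.03 ± 0.27 for Snora69 in Rpl39, -0.02 ± 0.41 for Snord43 in Rpl3 and 0.69 ± 0.30 for Snora33 in Rps12. The ratios overlapped between the groups for all 4 of these pairs, and Snora33 is a member that a host exon overlaps in the comprehensive annotation. Reads from a host's unspliced transcript that cross a member can be counted to the member, and their part in these values was not tested.

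Of the 8 members in other protein-coding genes 3 were lower, Snord17, Snora23 and Scarna6, with a median of -0.32. Among their hosts, Snx5, Atg16l1 (log2 fold change 0.05), Srcap (-0.03), Sf3b3 (0.07) and Wdr43 (0.24) were not called, Ipo7 (-0.28, edgeR exact test, adjusted p = 0.0205) and Tpt1 (-0.77) were lower and Eif5 was higher. The directions of Snx5 and Srcap turned when libraries were scaled by total counts alone. The 3 members in non-coding hosts, Snora73b in Snhg3, Snora78 in Snhg9 and Scarna13 in Snhg10, were all lower (median -1.42). Snora73b also lies inside Rcc1, to which no ratio was taken. Snhg3 was lower by less (log2 fold change -0.60, edgeR exact test, adjusted p = 0.0234), a call kept in 5 of 16 alternatives, Snhg9 was under the minimum of 1 CPM, and Snhg10 was not analysed here. Over the 15 pairs, Spearman's rho between member and host log2 fold change was 0.35, given as a description because pairs share libraries.

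**Figure D2:**
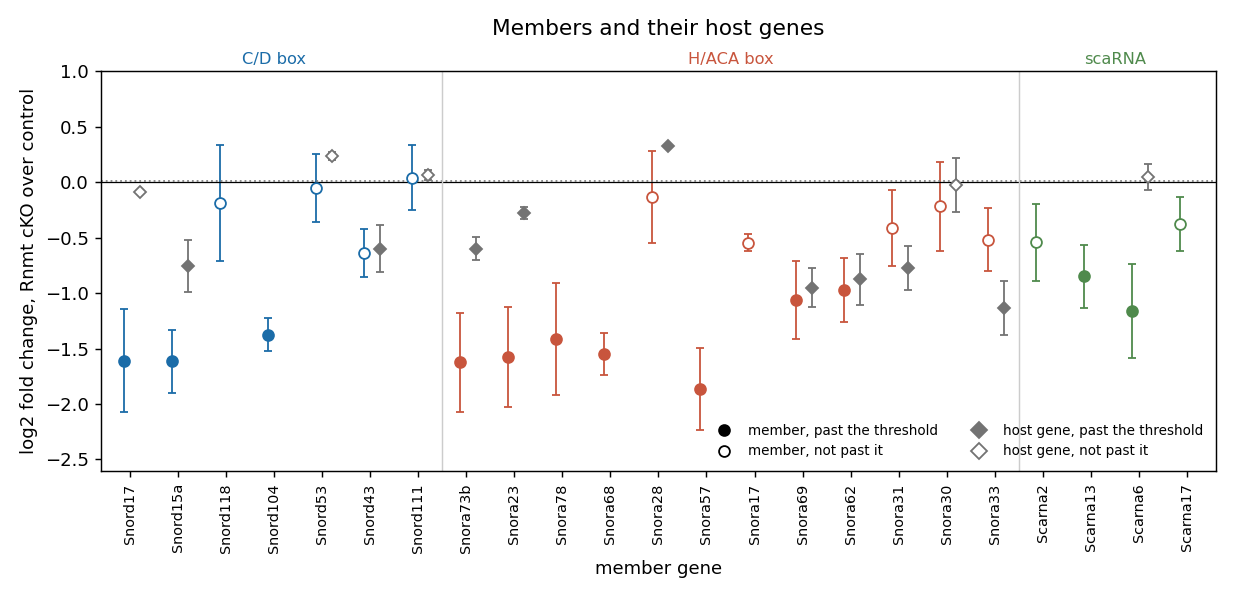
Log2 fold change (Rnmt cKO over control) of each member (circles, coloured by class) and of its host gene where one was tested and is reported (grey diamonds), in the order of the plot of levels. Bars are SEs over 3 libraries per group, filled symbols are past an adjusted p of 0.05 in the edgeR exact test, and the dotted line is the median of all genes tested. Snord17, Snora23 and Scarna6 sit far below their hosts, whereas Snora69, Snora62 and Snord43 sit beside theirs.

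The called members were mostly the abundant ones. Of the 13 members with at least 5 CPM in controls, 10 were lower, the exceptions being Snord118, Snora28 and Scarna2, and of the 10 members under 5 CPM, 2 were lower, Snora62 and Snora69. Over the 23 members, Spearman's rho with the log2 fold change was -0.58 for the level in controls, -0.50 for gene length and -0.44 for GC content, and length and level were themselves related (rho 0.67). These values are descriptions over members that share libraries. Of the 6 members longer than 180 bases (184 to 414 bases), 5 were lower (median -1.37), and of the 17 members of at most 149 bases, 7 were lower (median -0.55).

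**Figure D3:**
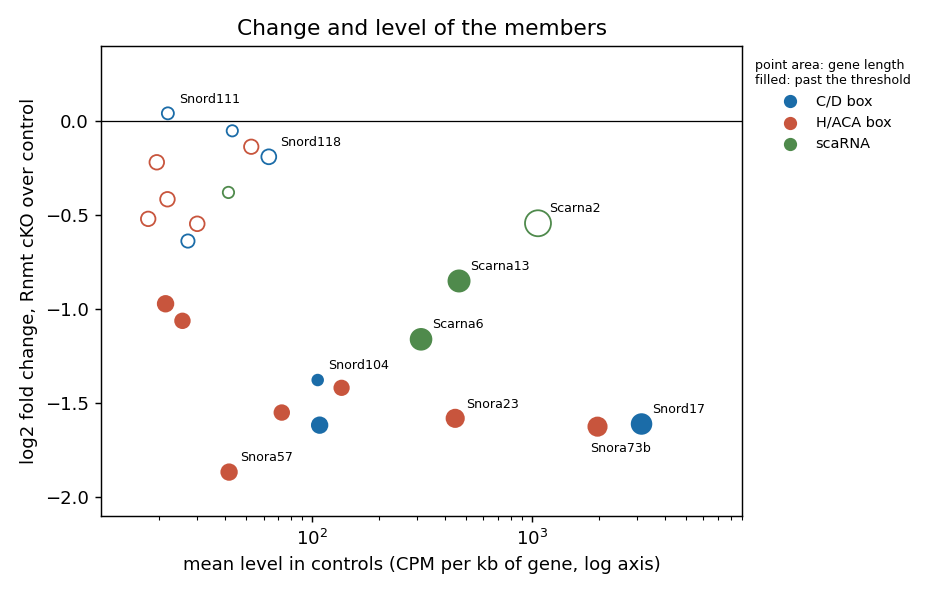
Log2 fold change (Rnmt cKO over control) of each member against its mean level in controls in CPM per kb of gene (log axis), with point area proportional to gene length and filled points past an adjusted p of 0.05 in the edgeR exact test. The abundant snoRNAs Snord17, Snora73b and Snora23 lie near one another at -1.58 to -1.62, and the scaRNAs Scarna6, Scarna13 and Scarna2 lie above them.

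The genes for proteins that bind, mature and transport these RNAs were called at shares to be read against the 6.84% lower and 8.0% higher over all genes tested. None of the 4 C/D box particle proteins (Nop56, Nop58, Fbl and Nhp2l1, median log2 fold change 0.09) or of the 4 H/ACA box particle proteins (Dkc1, Nhp2, Nop10 and Gar1, median 0.11) passed the test in either direction. The values ran from 0.03 for Fbl, the methyltransferase, to 0.20 for Nop56, and from -0.28 for Nop10 to 0.17 for Gar1, with Dkc1, the pseudouridine synthase, at 0.07. Of 12 genes for particle assembly and Cajal bodies 0 were called (median 0.04), and of 7 for cap binding, export and cap hypermethylation of small RNAs 0 were called (median 0.04), among them Tgs1, which hypermethylates caps (0.04), and Phax, an export adaptor (0.05). Of 10 genes for 3′ end processing 2 were higher, Parn, a deadenylase (0.36, edgeR exact test, adjusted p = 0.00485), and Ints3, an Integrator subunit (0.28, adjusted p = 0.0246), and 0 were lower (median 0.03).

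Other structured small RNAs were lower in the same libraries. Of 9 RNA polymerase II snRNA genes 4 were tested, of which the minor spliceosome RNAs Rnu12 (log2 fold change -1.74) and Rnu11 (-1.25) were lower and Rnu2-10 (-0.23) and Rnu5g (0.50) were not called. Of 10 small RNA genes of RNA polymerase III, which do not carry a methylguanosine cap, 8 were tested and 6 were lower: Rpph1 (-1.17), Rmrp (-1.11), Rn7sk (-0.90), Rny1 (-1.33), Rny3 (-1.31) and Vaultrc5 (-1.33). Their sum was 98598, 62186 and 61222 CPM in controls and 30711, 27353 and 51313 CPM in Rnmt cKO, with control 1 highest and Rnmt cKO 3 nearest to the controls, the order seen in the members. The part of this shared order in the fall of the members was not tested.

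**Figure D4:**
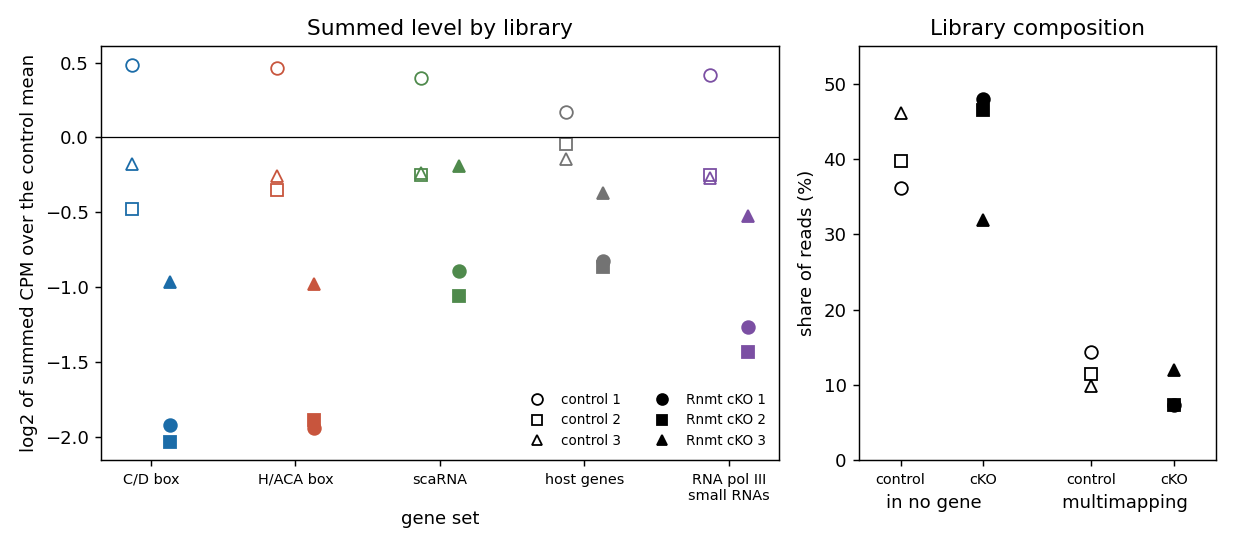
Left, log2 of the summed CPM of each gene set in each library over the set's mean in controls (open symbols are control libraries and filled symbols Rnmt cKO libraries, with 1 shape per replicate number). Right, the share of uniquely aligned reads in no gene and the share of all reads aligning to several places (%) in the same libraries. Rnmt cKO 3 is the highest Rnmt cKO library in every set and has the lowest share in no gene, 31.8%.

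The members were also compared within libraries on either side of a 40% share of reads in no gene. Among those below 40%, controls 1 and 2 against Rnmt cKO 3, the median log2 ratio of the members was -0.76 and 22 of 23 were below 0. Among those above 40%, control 3 against Rnmt cKO 1 and 2, the median was -0.93 and 18 of 23 were below 0, while the median over all genes tested was 0.0083 above 40% and -0.004 below 40%. Of the 12336 genes tested, 6221 were below 0 in the comparison below 40% and 6030 in that above 40%. Control 2, at 39.7%, lay close to the split, each comparison has 1 library on one side and no test, and the part of library make-up in the fall of the members was not tested.

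Outside the authors' table, 13 further genes with such symbols passed the minimum of 1 CPM in 3 libraries, all at mean levels under 4 CPM. Of these Snora21 (log2 fold change -1.38, edgeR exact test, adjusted p = 7.92e-04) and Snord32a (-1.36, adjusted p = 0.0224) were lower, and Snord13 was higher (1.33, adjusted p = 0.0314). These 3 were named after their values were seen. Snord13 was at 1.41, 0.799 and 1.21 CPM in controls and 1.59, 2.36 and 4.57 CPM in Rnmt cKO, with Rnmt cKO 3 highest and 8 to 51 counts per library. Of 1536 annotated snoRNA or scaRNA genes that are no members, these 13 included, 70 were tested, 20 were lower and 3 higher, with a median of -0.49.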

How the data were processed

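RNA from 3 control and 3 Rnmt cKO libraries was measured as paired-end 75 bp reads of Ribo-Zero Gold-depleted TruSeq libraries. The authors used STAR 2.5.2b, mm10 (GRCm38) and the basic annotation of GENCODE vM12 to align the reads, and deposited raw counts per gene, in which fragments that align to several places, as those of multi-copy snoRNAs do, or that overlap several genes are left out. A deposited table holds the signal the authors scaled to effective library sizes in edgeR, which equals the opposite-strand (sense) counts times 1 constant per library within 0.1% for 100% of its 11221 genes, along with the authors' comparison columns, which were not used. That table defined the members, and sense counts were used for all values.

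A gene was tested if 3 or more libraries exceeded 1 CPM, with the exact test of edgeR 4.0.16 (R 4.3.3) on TMM-scaled counts with tagwise dispersions and Benjamini-Hochberg adjustment (threshold 0.05). The tool, the test, the minimum and the threshold follow the study's stated methods. The deposited table held 11221 genes, fewer than the 12336 tested with this minimum. Requiring more than 1 CPM in all 6 libraries gave 11232 genes tested, with 753 lower and 845 higher. The paper reports the same numbers lower and higher. CPM values use the TMM-scaled library sizes. SEs of log2 fold changes come from the spread of log2 CPM with a prior count of 2. Those of member-to-host ratios come from the spread of the log2 ratio of the CPM values per library, with a small constant added to each CPM. Alternatives used quasi-likelihood fits, DESeq2 1.42.0 and mgcv 1.9.3, and the scripts were tested on simulated data. Host genes and sequences came from GENCODE vM21, with RefSeq of GRCm38.p6 as a second annotation. Values of 1 host gene and 1 cell marker are not reported here. The members and gene lists were chosen with earlier results of these data known. Genes named were Rnmt, Snord17, the scaRNAs, the members without a host gene, the 4 largest falls, the smallest change and the 2 highest levels per length in each box class, and their hosts, with the other members by name where a sentence accounts for all. Same-group libraries differed by 3.64 to 22.9 times counting noise (chi-square per degree of freedom), so none was treated as a repeat sequencing of another. These values cannot show whether the libraries came from separate animals. The precision of a low member is set by its counts, from 11 upwards in a library.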

Additional observations from a re-analysis of the deposited data

How the results depend on the processing

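The count of members lower, 12, stayed within 7 and 13 and the count higher at 0 in all alternatives run. It was 10 with the quasi-likelihood test, 8 with DESeq2, 12 with DESeq2 size factors, 11 with library size only, 12 with TMM over protein-coding genes, 10 with no filter, 12 with 1 CPM required in all 6 libraries, 10 on counts of either strand, 13 with the share in no gene as a covariate, 11 with GC content and length trends removed, and 10 to 13 when 1 library was left out. With a minimum of 10 CPM only 8 members were tested and 7 were lower, with medians of -1.51 (members), -1.63 (C/D box), -1.59 (H/ACA box) and -1.59 (intronic), because the low members were left out. Removing GC and length trends moved these medians to -0.59, -0.24, -0.56 and -0.59, where 90 of the 263 tested genes under 300 bases that inform the trend are themselves snoRNA or scaRNA genes. Leaving out 1 library gave medians from -1.14 to -0.67 for members, from -1.28 to -0.87 for H/ACA box and from -1.21 to -0.80 for intronic members, lowest without Rnmt cKO 3.

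Calls that depended on the setting were Snora62 (past the threshold in 5 of 17 alternatives), Snora69 (8 of 17), Snora78 (16 of 18), Scarna6 (17 of 18) and Scarna2 (3 of 18), and among hosts Snhg3 (5 of 16), Ipo7 (11 of 18), Eif5 (15 of 18), Rpl3 and Rps3 (17 of 18 each) and Wdr43 (4 of 18). With 1 library left out (edgeR exact test), Snora62 lost its call without each library except Rnmt cKO 3 (adjusted p from 0.0625 to 0.170) and Snora69 without each except control 2 and Rnmt cKO 3 (from 0.108 to 0.182). Among hosts, calls were lost by Ipo7 without any control or Rnmt cKO 1, by Snhg3 without each library except Rnmt cKO 3 and by Eif5 without control 2 (from 0.0631 to 0.172), and Wdr43 passed without Rnmt cKO 3 (0.0368). The cause was not tested. Directions turned only for genes that were not called: with GC and length trends removed Snord118 (0.30), Snord53 (0.23), Snora28 (0.26), Snora30 (0.22) and Snora31 (0.025), with library size only Snord53 (0.081), Snora28 (0.0012), Snx5 (0.035) and Srcap (0.10), and with the covariate Snord111 (-0.0087). With 1 library left out, Snord111 ranged from -0.11 to 0.35, Snord118 from -0.58 to 0.25, Snord53 from -0.35 to 0.13, Snora28 from -0.34 to 0.16, Snora30 from -0.44 to 0.16, Atg16l1 from -0.044 to 0.13 and Srcap from -0.22 to 0.12.

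Over all genes, calls were 844 lower and 987 higher, against 1466 and 1696 with the covariate, 535 and 1938 with library size only, and 547 to 1285 lower and 643 to 1221 higher with 1 library left out, highest without Rnmt cKO 3. The replicate numbers showed no pairing of the libraries: same-numbered libraries deviated with correlations of -0.21, -0.02 and -0.35, and no library correlated best with its own number. The highest correlations joined control 1 with Rnmt cKO 3 (0.35) and control 3 with Rnmt cKO 2 (0.29). A weaker pairing by number may not show beside these. A quasi-likelihood fit with the replicate block gave 9 members lower, and 276 genes lower and 431 higher over all genes.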
